A study of Homo sapiens with 12 samples.

Results

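MicroRNA genes were counted in the ribosome footprint libraries of HepG2 cells, a human liver cancer cell line, after knockdown of the RNA-binding protein IGF2BP3. Genes were taken by their GENCODE type, matched through the gene ID, and selected on their counts, which had to reach at least 60 when summed over the 6 footprint (RPF) libraries. This left 151 of 1877 microRNA genes in a table of 58721 genes, and 718 microRNA genes had any RPF count. The sum just reached the minimum for MIR193B at 60 counts and MIR6807 at 61.75 counts, and MIR3648-1 at 59.98 and MIR3648-2 at 59.75 lay just below it. The sum includes the knockdown libraries, so a gene that is low in the control could enter through the knockdown, and the counts over the 151 genes below describe them and test nothing.

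A microRNA is cut from a hairpin in a longer transcript, first by DROSHA with DGCR8 in the nucleus and then by DICER1 in the cytoplasm, and 1 strand is loaded into an Argonaute protein. The loaded strand pairs with messenger RNAs mainly through its seed, the bases next to its 5′ end, and lowers their translation and stability. Many microRNA genes lie in introns or exons of host genes, and a microRNA is not itself translated.

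The series held 12 libraries in 4 groups of 3, made from HepG2 cells with siControl (a commercial negative control siRNA) or siIGF2BP3, 2 days after a transient transfection. For RPF, ribosomes were held with 100 µg/mL cycloheximide for 4 min, unprotected RNA was digested with RNase I, RNA of 28 to 30 nt was cut from a gel, ends were repaired and rRNA was depleted before small RNA library making. Input was RNA of the same cells, and the labels give it the RPF protocol text, so its own library making is unknown. All groups share the cell line, and nothing says whether the 3 libraries of a group came from separate cultures, so p-values measure the spread between these libraries, which may be technical.

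RPF libraries held 13036423 to 31510601 counts, of which 9848 to 22769 fell on the 151 genes, and each of the 151 had a count in every RPF library. Input libraries held 11219750 to 14797573 counts, with a count at 59 to 72 of the 151 genes. IGF2BP3 itself was lower in all knockdown libraries, with 97.9 to 105.5 CPM (counts scaled to 1000000 per library) in Input against 126.7 to 133.3 in siControl, and 21.94 to 27.95 CPM in RPF against 74.6 to 78.1. Liver genes were high in Input (ALB 8280 to 9340 CPM, AFP 7230 to 8330 CPM), the blood cell gene PTPRC was at 0, and the fibroblast gene COL1A1 stayed at or below 0.636 CPM, while CD68, known from macrophages, had 19.7 to 24.8 CPM. In RPF, siControl replicates 2 and 3 differed by less than sampling noise (mean chi-square per gene 0.941, against 2.80 and 2.09 with replicate 1) and were counted as 1 sample in means, so n = 2 for siControl. siIGF2BP3 replicate 1 stood apart from replicates 2 and 3 (mean chi-square 19.9 and 21.5, against 1.15 between those 2), also over the 151 genes alone (15.0 and 11.7, against 2.07), and results are therefore also given without it.

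Mature strands of selected genes are printed by seed family, 5′ to 3′, with the seed (bases 2 to 8) in capitals. They are RefSeq sequences on GRCh38.p14, where 134 of the 151 genes matched a mature entry. MIR30D matched none, and for MIR10B the 5p strand was not in the table. The first set holds the genes of the MIR17 and MIR25 clusters and their seed relatives, some of which are among the highest members. MIR92A1 and MIR92A2 give the same mature strand.
miR-17-5p: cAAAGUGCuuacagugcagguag
miR-20a-5p: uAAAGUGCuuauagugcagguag
miR-93-5p: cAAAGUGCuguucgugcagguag
miR-106b-5p: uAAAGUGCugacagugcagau
miR-25-3p: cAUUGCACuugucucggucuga
miR-92a-3p: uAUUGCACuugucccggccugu
miR-32-5p: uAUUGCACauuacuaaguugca
miR-19a-3p: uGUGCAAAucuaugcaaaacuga
miR-18a-5p: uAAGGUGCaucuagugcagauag

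The let-7 family was the largest seed family, with 7 genes over the minimum, and MIRLET7F1 and MIRLET7F2 share 1 mature strand.
let-7a-5p: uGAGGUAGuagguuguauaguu
let-7d-5p: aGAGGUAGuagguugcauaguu
let-7e-5p: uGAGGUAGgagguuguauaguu
let-7f-5p: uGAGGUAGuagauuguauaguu
let-7g-5p: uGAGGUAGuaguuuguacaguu
let-7i-5p: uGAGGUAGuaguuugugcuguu

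The last set holds miR-30c and miR-30e, both miR-146 strands and single microRNAs whose genes are named below for their levels or changes. It also holds the liver microRNA miR-122, whose gene lay below the count minimum.
miR-30c-5p: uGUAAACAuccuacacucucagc
miR-30e-5p: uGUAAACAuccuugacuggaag
miR-146a-5p: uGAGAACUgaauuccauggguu
miR-146b-5p: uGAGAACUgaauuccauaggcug
miR-21-5p: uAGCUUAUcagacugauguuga
miR-7-5p: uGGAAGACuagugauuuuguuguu
miR-148a-3p: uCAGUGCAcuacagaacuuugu
miR-135b-5p: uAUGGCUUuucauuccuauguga
miR-122-5p: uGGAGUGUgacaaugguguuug

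The 225 mature strands of the matched genes were 17 to 27 nt long (median 22 nt), so 0 of them reached the 28 nt of the gel cut, while the 127 matched hairpins were 56 to 149 nt long (median 83 nt). The deposited tables give counts per gene and no read lengths or positions, so whether a read came from a mature strand, a hairpin or a host transcript was not measured. Counts were fractional in at least 1 RPF library for 112 of the 151 genes, and how reads with several positions were divided and which strand setting was used are not given in the sources used here.

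Counts were concentrated in few genes: MIR3652 held 14.4% of the counts on the 151 genes, the 3 highest 32.9% and the 12 highest 55.8%. MIR3652 (chr12:103930425-103930555, + strand, an exon of the chaperone gene HSP90B1) had 99.3, 100.5 and 97.0 CPM in siControl and 152, 96.2 and 89.6 CPM in siIGF2BP3, so that only siIGF2BP3 replicate 1 lay above the controls. MIR3609 (chr7:98881650-98881729, + strand, an intron of TRRAP) had 75.2, 75.5 and 76.0 CPM in siControl and 65.5, 68.9 and 70.2 CPM in siIGF2BP3. All knockdown libraries of MIR3609 lay below its controls, by a small margin. MIR21 (chr17:59841266-59841337, + strand, overlapping an exon of VMP1), a microRNA known for high levels in many cancers, had 32.8, 37.0 and 37.0 CPM in siControl and 66.2, 98.9 and 83.5 CPM in siIGF2BP3, with all knockdown libraries above all controls. The fourth, ENSG00000275110 (chrX:109054542-109054590, + strand, in no gene of its strand), had 25.5 to 26.9 CPM in siControl and 64.5, 34.7 and 31.3 CPM in siIGF2BP3. Here replicate 1 was far above the other knockdown libraries, which still exceeded the controls. MIR146B (chr10:102436512-102436584, + strand), a target of inflammatory signalling, had 16.1, 18.7 and 19.9 CPM in siControl and 23.8, 38.9 and 36.0 CPM in siIGF2BP3. Below these came MIR1248 (inside the snoRNA gene SNORA81), MIR1181 (an exon of CDC37), MIR93 and MIR106B (an intron of MCM7), MIR4426 (a pseudogene RPS27AP5), MIR320A and MIR4444-2, with means over the 6 libraries of 10.4 to 19.1 CPM.

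Per length the 5 highest were the same genes in another order. MIR3609 led with a mean of 89.9 CPM per 100 nt, then MIR21 with 82.3, MIR3652 with 80.7 and ENSG00000275110 with 71.2, while MIR146B in the fifth place had 35.0. MIR3609 varied little, with 75.5 CPM ± 0.3401 in siControl (SD, n = 2) and 68.2 CPM ± 2.42 in siIGF2BP3 (SD, n = 3), while MIR21 went from 34.9 CPM ± 2.96 to 82.9 CPM ± 16.4, so its place in the order depends on the group.

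**Figure D1:**
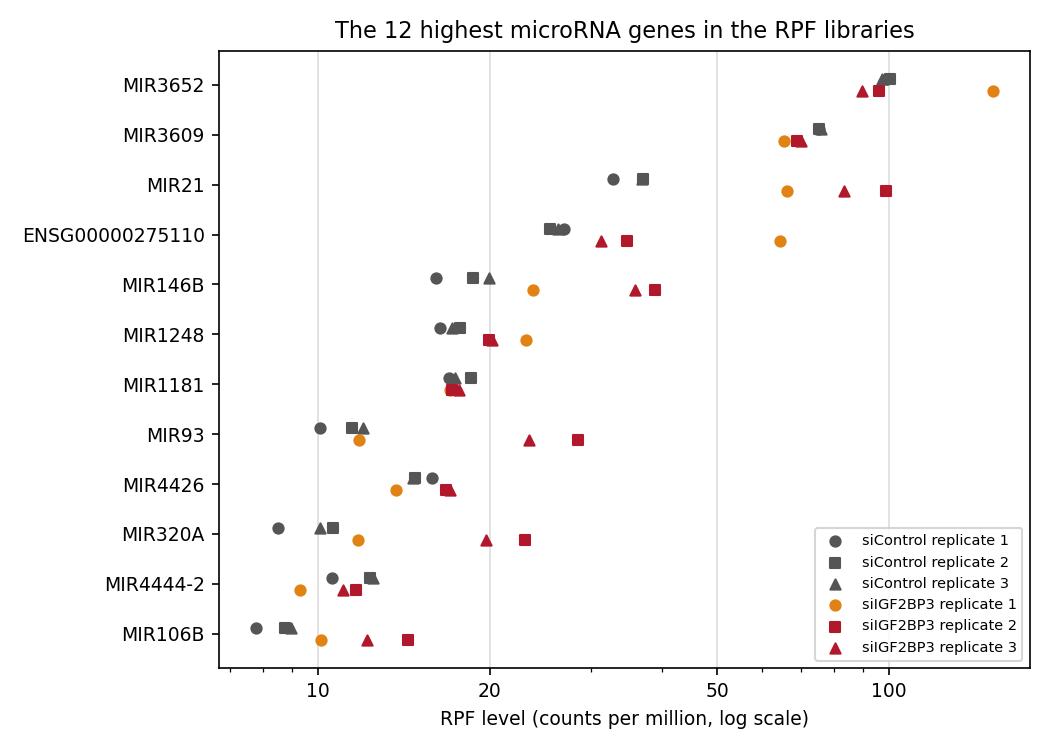
RPF level in CPM on a log axis for the 12 microRNA genes with the highest mean, one point per library, siControl in grey, siIGF2BP3 replicate 1 in orange and replicates 2 and 3 in red. MIR21, ENSG00000275110, MIR146B, MIR1248, MIR320A and MIR106B have all knockdown points to the right of the controls, and replicate 1 is the highest knockdown point for MIR3652, ENSG00000275110 and MIR1248 but the lowest for MIR21, MIR146B and MIR93.

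A list of 53 microRNA genes known from liver was compared with the levels, and 34 of its genes were among the 151, 15 had fewer than 60 counts and 4 were at 0 in all RPF libraries. Of the list, 5 were among the 20 highest microRNA genes (MIR21, MIR93, MIR106B, MIR191 and MIR92A1, at ranks 3, 8, 12, 14 and 15) and 12 among the 50 highest. From the siControl libraries alone 5 were among the 20 highest, and from the siIGF2BP3 libraries alone 7. MIR192, a microRNA of liver and gut, ranked 22 and MIR148A ranked 28. MIR122, the hallmark microRNA of hepatocytes, ranked 207 with 30 counts in all, and its levels were 0.159, 0.188 and 0.0937 CPM in siControl and 0.192, 0.413 and 0.255 CPM in siIGF2BP3. MIRLET7C, MIR99A, MIR10A and MIR885 were at 0 counts, which allows up to 3 counts each. Among microRNAs of other cell types, the 4 of blood cells (MIR142, MIR223, MIR150 and MIR155) were at 0, the muscle genes summed to 2.75 counts, the neural MIR9 genes to 0.83 and the endothelial MIR126 to 3. MIR143 and MIR145, of smooth muscle and fibroblasts, summed to 93.5 counts, 7.5 to 19 per library, and MIR145 was one of the 151. MIR143, MIR145 and MIR126 were on the liver list too.

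The RPF share of all microRNA genes was higher in every knockdown library. It was 0.0585, 0.0618 and 0.0613% of counts in siControl (mean 0.0600% ± 0.00217, SD, n = 2) and 0.0791, 0.0993 and 0.0891% in siIGF2BP3 (mean 0.0892% ± 0.0101, SD, n = 3), a ratio of 1.49. The exact two-sided permutation p was 0.1, the smallest that 3 against 3 libraries allow, and 0.2 with siControl replicates 2 and 3 averaged. In bulk libraries, more cells with a microRNA and more of it per cell cannot be told apart. In Input the share was 0.0294 to 0.0308% in siControl and 0.0308 to 0.0324% in siIGF2BP3. Other short RNAs moved in the same libraries: snRNA genes took 2.01 to 2.16% of RPF counts in siControl and 4.24, 2.67 and 2.59% in siIGF2BP3, and Mt-tRNA genes 0.0474 to 0.0569% against 0.0606 to 0.0761%. For snoRNA genes the groups overlapped, with 0.349 to 0.376% in siControl and 0.362 to 0.423% in siIGF2BP3. The part of these shifts in the microRNA changes was not tested.

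Across all genes, edgeR's quasi-likelihood test with Benjamini-Hochberg adjustment tested 147 of the 151 and called 29 of them higher after siIGF2BP3 at an adjusted p below 0.05, 19.7% of those tested, where 1.02% of all 20192 genes tested were called higher and 1.66% called in either direction. It called 0 lower (3 at an unadjusted p below 0.05), where 0.649% of all genes were. DESeq2 called 35 higher and 0 lower, beside 1.91% and 1.43% of all genes and 3.34% in either direction, but its own filter gave 82 of the 147 no adjusted p. Of the 29 calls it made 17 as well and gave no adjusted p for the other 12. The median log2 fold change was 0.47 over the tested members and 0.01 over all genes. Over all 151 microRNA genes that passed the filter, 147 of them members, the median was 0.50, and 0.06 with the length offset described below, where that of all genes was -0.01. All knockdown libraries lay above all controls for 55 of the 151 genes, beside 10.9% of all genes tested, and below all controls for 6 (MIR3609, MIR3917, MIR4687, MIR492, MIR378A and MIR140), beside 14.8%. MIR183, MIR28, MIRLET7E and MIR101-2 did not pass the filter on low counts in this fit.

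The number of calls depended on which libraries were used and on the processing. With a length offset, which takes out of each library the smooth trend of counts on gene length and so any shift that genes of like length share, 4 members were called higher (MIR10B, MIR7-1, MIR7-2 and MIR7-3) and 2 lower (MIR3609 and MIR4521), beside 0.475% and 0.56% of all genes. With siControl replicates 2 and 3 summed into 1 library, 3 members were called (MIR7-1, MIR7-2 and MIR7-3), beside 0.0481% of all genes called higher, 0.0192% lower and 0.0674% in either direction. Leaving out siControl replicate 1, 2 or 3 gave 3, 4 and 3 calls, all higher, beside 0.0492%, 0.0339% and 0.0532% of all genes called higher. Leaving out siIGF2BP3 replicate 2 or 3 gave 4 and 6, beside 0.138% and 0.227%, and in these 5 fits MIR454, MIR21 or MIR425 were the calls beside the MIR7 genes. Without siIGF2BP3 replicate 1, 78 members were called higher and 4 lower (MIR3609, MIR378A, MIR140 and MIR4521), where 7.97% of all genes were called higher, 8.57% lower and 16.5% in either direction. With both changes at once, 78 were called higher and 2 lower (MIR140 and MIR378A), beside 7.06%, 7.37% and 14.4% of all genes. With the replicate number as a block, 46 were called higher and 0 lower, beside 1.45% of all genes called higher, 0.426% lower and 1.88% in either direction. When libraries were scaled to the microRNA total, so that the median of all genes moved from 0.01 to -0.57, 48 members were called higher and 40 lower, beside 0.381% and 78% of all genes and 78.4% in either direction.

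The MIR7 genes were the members called whichever of the 6 RPF libraries was left out. MIR7-2 (chr15:88611825-88611934, + strand) had 4.05, 4.18 and 4.28 CPM in siControl and 10.6, 11.4 and 11.2 CPM in siIGF2BP3, with a change of 1.43 on the log2 scale (SE 0.07, edgeR adjusted p = 0.000301). MIR7-3 (chr19:4770670-4770779, + strand) had nearly the same values, with 4.08 to 4.33 CPM against 10.6 to 11.3 CPM. MIR7-1 (chr9:83969748-83969857, - strand, at an exon of HNRNPK) had 2.45 to 2.63 CPM in siControl and 5.89 to 6.71 CPM in siIGF2BP3, with a log2 change of 1.35 (SE 0.09, adjusted p = 0.00117). In all 3 genes the knockdown libraries lay above the controls without overlap, and with siControl replicates 2 and 3 summed the edgeR adjusted p was 0.00659 for MIR7-2 and MIR7-3 and 0.0207 for MIR7-1. The RefSeq entries used held miR-7-5p at MIR7-1 and MIR7-3 and only a 3p strand for MIR7-2, so the 5p strand of MIR7-2 was not matched. The counts of all 3 genes were fractional in all 6 RPF libraries, and they are not independent measurements. HNRNPK itself, which encodes an abundant RNA-binding protein, had an RPF log2 fold change of -0.17 (edgeR adjusted p = 0.0838).

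The 6 largest rises among the calls all kept the call without siIGF2BP3 replicate 1 and lost it with siControl replicates 2 and 3 summed. MIR30C2 (chr6:71376960-71377031, - strand) was at 0.317, 0.422 and 0.211 CPM in siControl and 0.767, 1.67 and 1.59 CPM in siIGF2BP3, a log2 change of 2.20 (SE 0.33, edgeR adjusted p = 0.0241). MIR148A (chr7:25949919-25949986, - strand), abundant in liver, was at 1.81, 2.34 and 2.34 CPM and then at 4.60, 11.7 and 9.26 CPM, a log2 change of 2.06 (SE 0.30, adjusted p = 0.0242). The others were MIR135B with a log2 fold change of 2.05, MIR25 and MIR19A with 2.01 each and MIRLET7F2 with 2.00. In all 6 the knockdown libraries lay above the controls, and replicate 1 was the lowest of the knockdown libraries. MIR21 was called with a log2 change of 1.24 (SE 0.13, edgeR adjusted p = 0.00767) and MIR146B with 0.88 (SE 0.16, adjusted p = 0.0470), and both lost the call with the replicates summed (adjusted p = 0.0719 and 0.193). MIRLET7G had the largest fold change of any tested member, at 2.55 (SE 0.54), and was not called (adjusted p = 0.0691; 0.0334 with the replicate block), with 0.281 to 0.515 CPM in siControl and 0.690, 3.72 and 2.28 CPM in siIGF2BP3.

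The members were then split into 5 places by the gene spans in the files, a split made after the values had been seen. Of 56 genes that overlap an exon of a protein-coding gene or pseudogene on their strand, 3 were called (MIR21, MIR7-1 and MIR224) and the median log2 fold change was 0.03. Of 57 tested genes in an intron of a host, 17 were called and the median was 1.25, and of 16 tested genes in no gene of their strand, 6 were called with a median of 1.21. In GENCODE 44, where some genes are longer, 8 of the 17 genes in no gene lie inside one, among them MIRLET7A1, MIRLET7F1 and MIRLET7D in MIRLET7A1HG, and 3 of the 6 calls are in these 8. Of 12 genes in an exon of a lncRNA gene, 3 were called with a median of 1.23. Over all genes tested, 1.02% were called higher. The 6 genes inside a snoRNA or scaRNA gene (MIR1248, MIR6516, MIR664B, MIR3651, MIR1291 and ENSG00000280968) had a median of 0.14 and 0 calls by edgeR (2 at an unadjusted p below 0.05) and by DESeq2. With the replicate block the calls were 3 exonic, 26 intronic, 11 in no gene and 6 in lncRNA exons, with the length offset 1, 2, 1 and 0 were called higher, and with siControl replicates 2 and 3 summed 1, 1, 1 and 0. In the same order of fits, 1.45%, 0.475% and 0.0481% of all genes were called higher. Without siIGF2BP3 replicate 1, 5 of the 56 exonic genes and 70 of the 89 genes in introns, lncRNA exons or no gene were called higher. Of all genes 7.97% were called higher in that fit, and the exonic share lay near this. The difference between places was not tested.

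Summed levels were read in the same places. The 56 exonic genes summed to 259.8, 270.4 and 264.2 CPM in siControl and 358.5, 334.9 and 311.0 CPM in siIGF2BP3, where MIR3652, MIR21 and the other high genes weigh most. Of these sums MIR21 held 32.8 to 37.0 CPM in siControl and 66.2, 98.9 and 83.5 CPM in siIGF2BP3. MIR3652 held 97.0 to 100.5 CPM in siControl and 152, 96.2 and 89.6 CPM in siIGF2BP3. The median log2 fold change of the 56 genes was 0.03. The 89 genes in introns, lncRNA exons or no gene summed to 269.8, 288.0 and 290.9 CPM in siControl and 363.1, 569.5 and 499.7 CPM in siIGF2BP3, so that replicate 1 lay between the controls and the other knockdown libraries. For 77 of these 89 genes siIGF2BP3 replicates 2 and 3 both exceeded every control, and for 51 of the 89 replicate 1 did. The shares of all genes for these counts were not computed. For 49 of the 89 all knockdown libraries exceeded every control, beside 10.9% of all genes tested. The 89 genes were selected on counts that include these knockdown libraries.

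**Figure D2:**
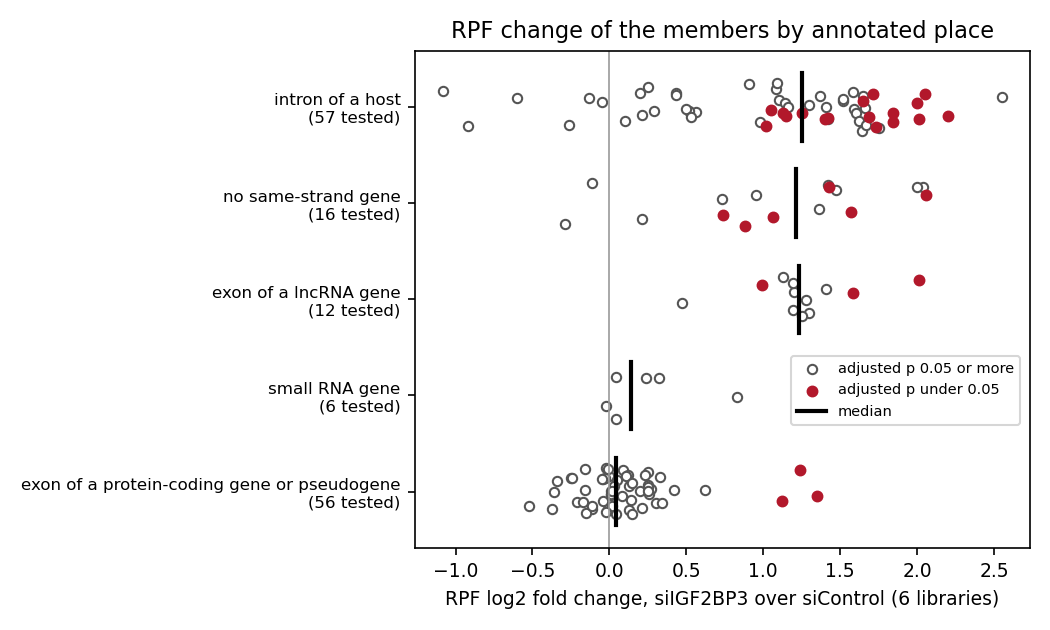
RPF log2 fold change of the 147 tested members, siIGF2BP3 over siControl with 6 libraries, by annotated place, with the calls filled in red and the median as a bar. Exonic genes gather near 0 (median 0.03) apart from 3 called genes, and the intronic genes spread from -1.08 to 2.55 (median 1.25).

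**Figure D3:**
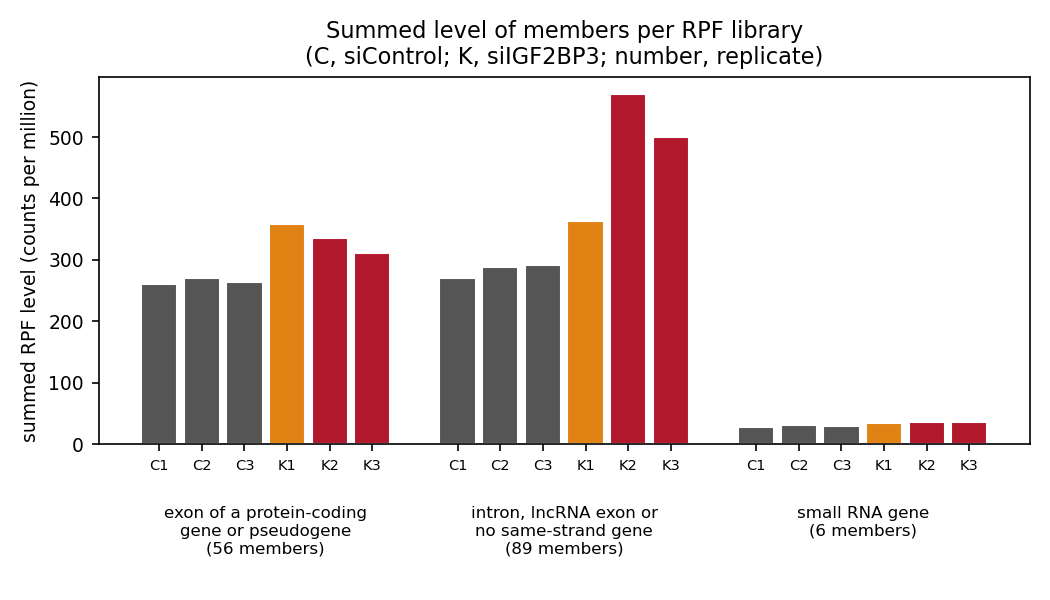
Summed RPF level in CPM of the members by place, one bar per library (grey siControl, orange siIGF2BP3 replicate 1, red replicates 2 and 3). The group of 89 genes has 363.1 CPM in siIGF2BP3 replicate 1 and 569.5 and 499.7 CPM in replicates 2 and 3, against 269.8 to 290.9 CPM in siControl.

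Input counts lay mostly on exonic members. A mean of at least 5 counts over the Input libraries was reached by 30 of the 151 genes, and 28 of them overlap an exon of a protein-coding gene or pseudogene. The highest were MIR3652 with a mean of 452.8 counts, MIR3064 (an exon of the helicase gene DDX5) with 291.4 and MIR7703 (an exon of PSME2) with 197.5. Of these 30 genes, 0 were called in RPF by edgeR (1 at an unadjusted p below 0.05) and 0 by DESeq2, and their log2 fold changes ran from -0.24 to 0.42. At the other end, 61 genes had no Input count in any of 6 libraries, which allows up to 3 counts each, and 18 of these were called higher in RPF, 30 with the replicate block, 3 with the length offset and 2 with siControl replicates 2 and 3 summed. Of all genes 1.02%, 1.45%, 0.475% and 0.0481% were called higher in that order. For the 61 genes a ratio of RPF to Input could not be formed.

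Neighbouring genes of the same strand within 10 kb formed 15 clusters that held 36 of the 151 genes, 4 of them with 3 or more. The MIR17 cluster (chr13:91350605-91351391, + strand, exons of MIR17HG), whose microRNAs are known to promote growth of tumours, held MIR17, MIR18A, MIR19A, MIR20A and MIR92A1. Its summed level was 10.8, 12.7 and 12.1 CPM in siControl and 14.2, 35.7 and 29.7 CPM in siIGF2BP3. Within it the means differed 11.6-fold, from MIR19A at 0.672 CPM to MIR92A1 at 7.80 CPM (0.819 and 10.0 CPM per 100 nt), and the log2 fold changes ran from 1.19 to 2.01. With 6 libraries 1 of the 5 was called (MIR19A), with the replicate block 3, and without siIGF2BP3 replicate 1 all 5 were. Of all genes 1.02%, 1.45% and 7.97% were called higher in that order.

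The related cluster in MCM7 (chr7:100093560-100094074, - strand), which encodes a subunit of the replicative helicase, held MIR25, MIR93 and MIR106B. It summed to 18.9, 21.1 and 22.1 CPM in siControl and 23.6, 48.2 and 40.1 CPM in siIGF2BP3. MIR25 was called with 6 libraries, 2 of the 3 with the replicate block and all 3 without siIGF2BP3 replicate 1. These fits called 1.02%, 1.45% and 7.97% of all genes higher. In the cluster of MIR99B, MIRLET7E and MIR125A (chr19:51692612-51693339, + strand) the sums were 1.66 to 1.81 CPM and then 3.15, 8.22 and 6.08 CPM, with MIR99B and MIR125A called. In that of MIRLET7A1, MIRLET7F1 and MIRLET7D (chr9:94175957-94178920, + strand) they were 3.76 to 4.16 CPM and then 5.64, 9.90 and 9.83 CPM, with MIRLET7A1 and MIRLET7D called. In all 4 clusters siIGF2BP3 replicate 1 lay above the controls and below replicates 2 and 3. With siControl replicates 2 and 3 summed or with the length offset, 0 of these genes were called, beside 0.0481% and 0.475% of all genes called higher.

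**Figure D4:**
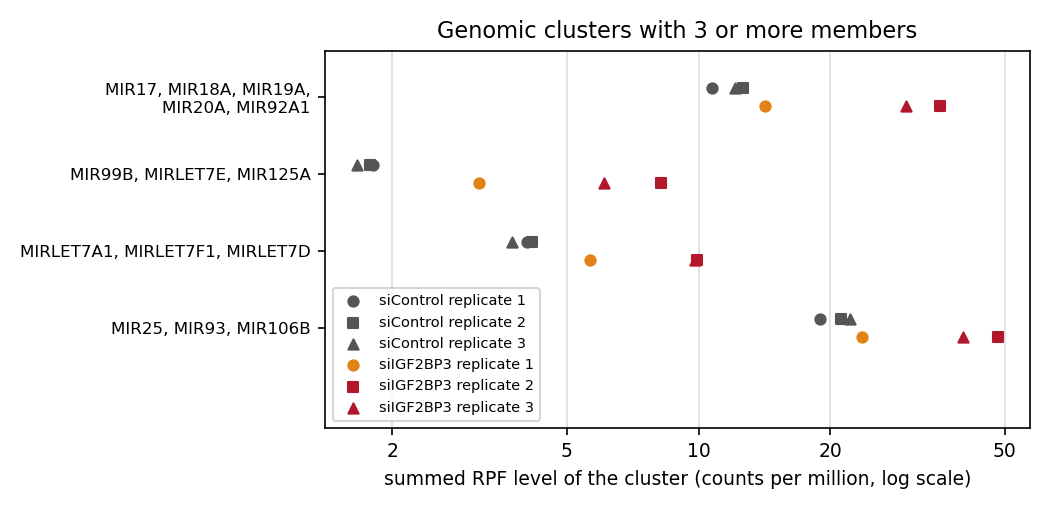
Summed RPF level in CPM, on a log axis, of the 4 genomic clusters with 3 or more members, one point per library. In each cluster the 3 control points lie lowest, siIGF2BP3 replicate 1 next and replicates 2 and 3 highest, from 14.2 to 35.7 CPM for the MIR17 cluster.

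By seed, the 7 genes of the let-7 family, known to restrain growth and to be blocked by LIN28 proteins, summed to 5.41 to 5.56 CPM in siControl and 7.86, 19.0 and 15.9 CPM in siIGF2BP3. Of the 6 tested, 3 were called (MIRLET7A1, MIRLET7D and MIRLET7F2), and without siIGF2BP3 replicate 1 all 7 were. The 4 genes with the seed AAAGUGC (MIR17, MIR20A, MIR93 and MIR106B) summed to 23.4, 27.1 and 27.2 CPM in siControl and 30.1, 60.9 and 50.6 CPM in siIGF2BP3, with 0 called with 6 libraries, 3 with the replicate block (MIR17, MIR20A and MIR106B) and 4 without replicate 1. The 3 miR-30 genes with a matched strand of seed GUAAACA (MIR30C1, MIR30C2 and MIR30E) were called, with log2 fold changes of 1.65 to 2.20 and sums of 3.67 to 4.22 CPM against 7.13, 16.7 and 13.8 CPM. MIR30D, of the same family by name but not in these sums, had a log2 change of 2.00 (SE 0.38) and was not called (edgeR adjusted p = 0.0527; 0.0322 with the replicate block). With siControl replicates 2 and 3 summed or with the length offset, 0 genes of these 3 seeds were called. The 34 genes of the liver list held 9 of the 29 calls (19 of 46 with the replicate block, 0 with the length offset or with siControl replicates 2 and 3 summed) and had a median log2 fold change of 1.52 over 32 tested. Among all genes 1.02% were called higher, 1.45% with the block and 7.97% without siIGF2BP3 replicate 1. With the length offset 0.475% were, and with siControl replicates 2 and 3 summed 0.0481%.

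The members that were lower after knockdown were few. MIR378A (chr5:149732825-149732890, + strand, in an intron of PPARGC1B), linked to energy metabolism like its host, had 1.03, 1.45 and 1.76 CPM in siControl and 0.792, 0.688 and 0.504 CPM in siIGF2BP3, a log2 change of -1.08 (SE 0.28, edgeR adjusted p = 0.109). MIR140 (chr16:69933081-69933180, + strand, in an intron of WWP2) had 1.14, 1.41 and 1.03 CPM and then 0.384, 0.867 and 0.510 CPM, a log2 change of -0.92 (SE 0.26, adjusted p = 0.133). The knockdown libraries lay below the controls in both genes, which were called lower without siIGF2BP3 replicate 1 (adjusted p = 0.0183 and 0.0478). MIR3609 had a log2 change of -0.13 (SE 0.04, adjusted p = 0.192), and -0.12 without replicate 1 (adjusted p = 0.0214). MIR378A was the 1 gene of the liver list called lower without replicate 1, where 32 of its 34 were called higher. This stands beside 8.57% of all genes called lower and 7.97% called higher in that fit.

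Host genes were read from the coordinates in the files. A host is a protein-coding or lncRNA gene whose span holds the whole microRNA gene on the same strand, and it was called expressed with a mean of at least 1 CPM in Input. In an expressed host lay 117 of the 151 genes, 59 at an exon and 58 in an intron, 10 lay in a host below 1 CPM and 24 in no host. Intron here means only that no exon of that host overlaps. Among the 58 are MIR6516, MIR3651, MIR1291 and ENSG00000280968, inside snoRNA or scaRNA genes. MIR3654 and MIR632, at exons of other genes, are among them too. RPF calls were 6 of 59, 11 of 56 tested, 6 of 9 tested and 6 of 23 tested in that order, with median log2 fold changes of 0.13, 1.08, 1.71 and 0.88, and with the replicate block they were 8, 20, 7 and 11. The share of all genes called higher was 1.02%, and 1.45% with the block. Of 102 expressed hosts, Input RNA was called higher for 7 and lower for 8 by edgeR, beside 4.05% and 1.9% of all genes and 5.96% in either direction, and the median log2 fold change was -0.03. In RPF 1 of 100 tested hosts was called, the lncRNA gene MIR3142HG, with a log2 fold change of 1.50, where 1.66% of all genes were called. MIR146A, with a log2 fold change of 1.58, lies at an exon of this host. Whether the same reads were counted for both genes was not measured. The MIR3142HG call was lost with RLE size factors in place of TMM, with siControl replicates 2 and 3 summed and on leaving out any 1 of the RPF libraries other than siIGF2BP3 replicate 1. The 15 RNA calls fell to 8 or 9 without siControl Input replicate 2 or 3 and to 8 or 6 without siIGF2BP3 Input replicate 2 or 3.

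The hosts called lower in RNA included IGF2, the growth factor whose transcript gave the IGF2BP proteins their name and which holds MIR483. IGF2 had 5850 to 6080 CPM in siControl Input and 4420 to 5020 CPM after knockdown, a log2 change of -0.39 (SE 0.05, edgeR adjusted p = 1.26e-05). MIR483 had, in RPF, 2.19 to 2.95 CPM in siControl and 2.69, 7.22 and 6.15 CPM in siIGF2BP3, a log2 fold change of 1.10 that was not called (edgeR adjusted p = 0.121) and was called with the replicate block (adjusted p = 0.034) and without replicate 1 (adjusted p = 9.52e-05). Other called hosts were CALR with an RNA log2 fold change of -0.31, SKA2 with -0.24, HNRNPK with -0.22 and HSP90B1 with -0.17, and among the higher ones GABRE with 0.33, COL27A1 with 0.32, CDC37 with 0.22 and VMP1 with 0.17. For VMP1, which overlaps MIR21, RPF had a log2 fold change of 0.23 (adjusted p = 0.235) where MIR21 had 1.24. Over 56 intronic members in 47 expressed hosts, the RNA change of the host and the RPF change of the member had a Pearson's r of 0.10, and over 58 members the host's Input level and the member's RPF level had an r of -0.07. These describe points that share hosts and libraries and carry no test.

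**Figure D5:**
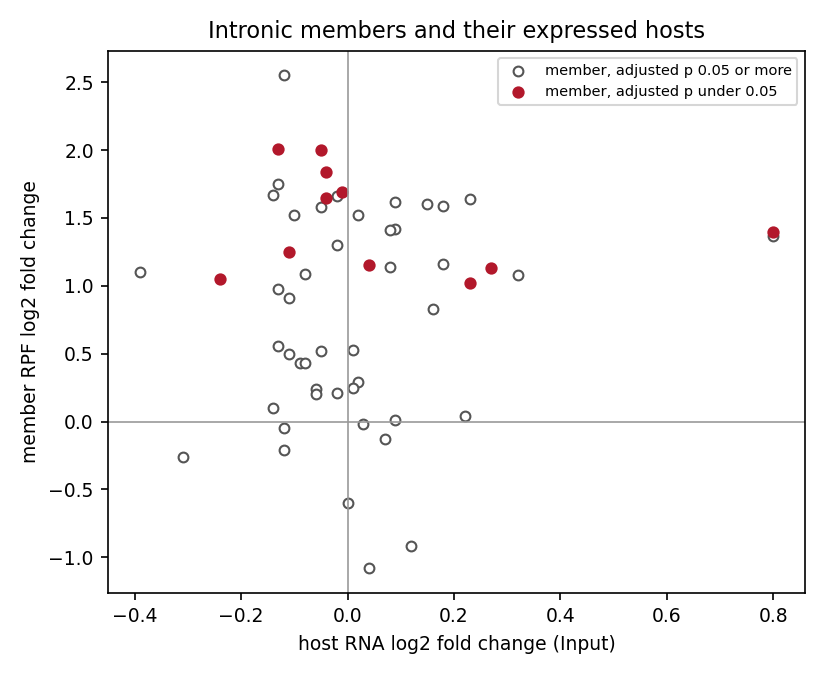
RPF log2 fold change of 56 intronic members against the Input RNA log2 fold change of their expressed hosts, with called members in red. Hosts range from -0.39 to 0.80 on the horizontal axis and members from -1.08 to 2.55 on the vertical, with r at 0.10. Intronic means only that no exon of the host overlaps the member.

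Of 30 genes of the microRNA pathway, 29 were tested, of which 2 were called in RNA, beside 5.96% of all genes, and 1 in RPF, beside 1.66%. The RNA calls fell to 0 without siIGF2BP3 Input replicate 3 and to 1 without siIGF2BP3 Input replicate 1 or siControl Input replicate 1 or 3. Input RNA was called higher for TNRC6A, a scaffold that binds Argonaute, with 137 to 145 CPM in siControl and 161 to 170 CPM in siIGF2BP3 (log2 fold change 0.19, SE 0.05, edgeR adjusted p = 0.0177). It was called lower for the chaperone HSP90AB1, which helps to load Argonaute (log2 fold change -0.17, SE 0.05, adjusted p = 0.0243). In RPF the related scaffold TNRC6B was called lower, with 19.6 to 19.7 CPM in siControl and 15.0, 13.3 and 15.1 CPM in siIGF2BP3 (log2 fold change -0.43, SE 0.07, adjusted p = 0.0368), and this call was lost with siControl replicates 2 and 3 summed (adjusted p = 0.194), with the replicate block and on leaving out any 1 of the RPF libraries other than siIGF2BP3 replicate 1. DROSHA, DGCR8, XPO5, DICER1 and AGO2 were not called in either fit, with RPF log2 fold changes of -0.07, -0.07, 0.01, -0.21 and -0.35. LIN28B, which blocks let-7 processing, had -0.12 in RPF and -0.04 in RNA (adjusted p = 0.516 and 0.728). Without siIGF2BP3 replicate 1, 3 pathway genes were called higher and 9 lower in RPF, beside 7.97% and 8.57% of all genes, among them AGO2 with -0.37 (adjusted p = 0.00337) and DICER1 with -0.12 (adjusted p = 0.0265).

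Shared sequence limits which gene a count belongs to. Of 127 hairpins searched, 14 held a 25-nt stretch that also occurs in a GENCODE 44 transcript of a gene elsewhere in the genome. Transcripts of microRNA genes were left out of this search, so stretches shared among microRNA genes were not counted. MIR6862-1 and MIR6862-2, which share mature strands, had no match for this reason among others not checked. All stretches of MIR3654 recur in transcripts of other genes (EEF1G holds the most), as do all of MIR4444-2 (HNRNPA3) and 92.3% of those of MIR4426 (RPS27A), and MIR4444-1 lies in an exon of HNRNPA3. MIR3654, MIR4444-2, MIR4426 and MIR4444-1 had RPF log2 fold changes of 0.01, -0.11, 0.09 and -0.04. Of the stretches of MIR7-3, 5.81% recur in HNRNPK, the gene that holds MIR7-1. Among the 113 hairpins with no such stretch, 33 had whole-number counts in all RPF libraries (within 0.005). Of the 36 tested members with whole-number counts in all 6, 12 were called higher, beside 1.02% of all genes. Of members with whole-number counts, 18 were called higher with the replicate block and 34 without siIGF2BP3 replicate 1. With the length offset 1 was called higher, and with siControl replicates 2 and 3 summed 0. Of all genes 1.45%, 7.97%, 0.475% and 0.0481% were called higher in that order.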

How the data were processed

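Per the paper's methods, adapters were removed with Cutadapt, STAR placed the reads on hg38 and featureCounts gave gene counts. The authors deposited these as estimated counts, fractional to hundredths, with 1 table per library. Versions, the strand setting and the treatment of multimapping reads are not given in the sources used here. Gene IDs without version were matched to GENCODE 44 (58207 of 58721 matched), where all 1877 microRNA genes have the coordinates of the files.

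Counts were rounded (summed changes at most 0.0445% of a library's total) and tested in R 4.3.3 with edgeR 4.0.16 (filterByExpr, TMM, robust quasi-likelihood), RPF and Input separately, siIGF2BP3 against siControl, with Benjamini-Hochberg adjustment over all genes tested at 0.05. DESeq2 1.42.0 and the other alternatives are given in the closing section, and the test was tested on simulated data. CPM is the count scaled to 1000000 per library. Means are mean ± SD over libraries. RPF totals were 13036423 to 31510601 counts. A count of 0 allows up to 3, and this covers counting error only.

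Deviations of same-numbered RPF libraries from their group means had r = 0.40, 0.31 and 0.12 over 17944 genes on log2(CPM + 0.5). Deviations of 3 libraries from their mean sum to 0, so these values are not independent. siControl replicate 2 with siIGF2BP3 replicate 3 gave 0.22 and replicate 3 with 2 gave 0.17, so a pairing of replicates 2 and 3 by number was not shown. The replicate block takes the numbers as pairs and is given as an alternative only. Input showed no pairing (r = -0.01, -0.07 and -0.03).

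Named genes are the 12 highest, the liver list, the 6 largest rises and falls among the calls, genes with a mean of at least 5 Input counts, clusters of 3 or more, called hosts and called pathway genes, and the others were chosen after their values were seen. The members and all lists were chosen with earlier results of these data known. The split into 5 places was added after the values were seen. Translation efficiency was not tested for microRNA genes.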

Additional observations from a re-analysis of the deposited data

How the results depend on the processing

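The number of RPF members called in either direction was 29 as reported and 46 with the replicate block, 88 (48 higher, 40 lower) scaled to the microRNA total, 3 with siControl replicates 2 and 3 summed, 80 with that and without siIGF2BP3 replicate 1, 6 with the length offset, and 12 among members with whole-number counts. Leaving out 1 library gave 3 to 82, with 82 without siIGF2BP3 replicate 1. The cause was not tested. Of the 29 calls, DESeq2 made 17 and gave no adjusted p for 12, and 27 were still called with the block, 29 with RLE factors, 25 scaled to the microRNA total and 4 with the length offset.

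Pathway genes called in RPF were 1 as reported, 4 by DESeq2, 2 without a filter, and 0 with the replicate block or with the replicates summed, and leaving out 1 library gave 0 to 12. In RNA they were 2, and 0 to 2 with 1 library left out. Hosts called in RPF were 1 as reported, 9 by DESeq2, 0 with RLE factors or the replicates summed, 2 without a filter, 2 with the replicate block, and 0 to 28 with 1 library left out. In RNA they were 15, and 6 to 17 with 1 library left out. The higher ends of the RPF ranges came without siIGF2BP3 replicate 1, where 16.5% of all genes were called. Of all genes 1.66% were called in RPF as reported, 3.34% by DESeq2, 1.88% with the replicate block and 0.0674% with the replicates summed. RLE factors called 333 of 20192 genes, and the fit without a filter called 426 of 34396. In RNA 5.96% of all genes were called as reported.

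Over 60 named members and 17 alternatives, 6 uncalled members changed sign. Scaled to the microRNA total, log2 fold changes were -0.34 for MIR3652, -0.25 for MIR1248, -0.49 for MIR4426, -0.03 for MIR106B and -0.50 for MIR145. With the length offset they were -0.15 for MIR3652, -0.08 for MIR1248, -0.42 for MIR4426 and -0.31 for MIR145. MIR3652 was at -0.09 without siIGF2BP3 replicate 1, also with siControl replicates 2 and 3 summed, and ran from -0.09 to 0.36 with 1 library left out. MIR1181 was at 0.00 with TMM on protein-coding genes and 0.01 with the replicates summed, and ran from -0.05 to 0.04, and MIR145 from -0.10 to 0.22. The difference between groups in the RPF share of counts at all miRNA genes was 0.0287 percentage points and stayed between 0.0236 and 0.0356 in the alternatives run. Low counts limit the members near 60 counts.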
